A study of Saccharomyces cerevisiae with 2 samples.

Results

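The genes described here are the long named protein-coding genes of the budding yeast nucleus. They are the nuclear protein-coding genes of at least 4000 bp, from start to end in the R64 gene table, whose symbol is not simply their locus tag. The rule left 191 genes of the 6002 nuclear protein-coding genes, and it removed 49 long ORFs without a gene name, most of which have the length of Ty retrotransposon ORFs. The rule itself uses no peak value, although it was chosen with earlier results of these data known. The 191 genes ran from 4002 to 14733 bp, with a median of 4755 bp, and added up to 1008 kb.

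DRIP-seq maps DNA that is pulled down by the antibody S9.6, which binds RNA:DNA hybrids. The series holds 1 S9.6 immunoprecipitate and 1 input. Both came from asynchronous mid-log cells of strain WRBb-9D in YPAD, a rich medium, at 30 °C. The strain is MATa and has the marker alleles trp1-1, his3-11,15, can1-100 and ade2-1 and a mutant leu2 allele. It carries a deletion of BAR1, RRM3::FLAG::KAN, and ura3::URA3/GPD-Tk(7x), although the labels name it wild type. DNA was cut by restriction enzymes and both samples were amplified across the whole genome before sequencing, so an interval may reach beyond the hybrid itself up to the ends of a restriction fragment. The data analysed are the intervals, called peaks below, that the authors deposited for the immunoprecipitate. With 1 library, no value below has a replicate error and no test was made. The exact (Clopper-Pearson) 95% intervals beside shares of genes cover counting error only. The list does not hold read counts, so depth is unknown.

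RNA:DNA hybrids form when a transcript pairs with its template strand behind or away from RNA polymerase, and they are removed by RNase H enzymes and by helicases such as Sen1. Packaging of the nascent RNA, in yeast by the THO complex and by export adaptors such as Yra1, limits them. A long gene offers RNA polymerase a longer path, and a gene that takes long to transcribe is more likely to meet a replication fork. Long yeast genes mostly encode large enzymes, scaffolds and motor proteins, many of them made in modest amounts.

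Peaks over the long genes were narrow and scattered. Of the 191 genes, 90 (47.1%, interval 39.9 to 54.5) were touched by at least 1 bp of a peak, against 27.9% of the 1035 named genes of at least 2000 and under 4000 bp, and 21.0% of all 5257 named genes. A longer gene has more room for a peak, so the share of bases is the fairer measure. By that measure the long genes had 3.82% of their bases inside peaks, against 4.22% in the genes of 2000 to under 4000 bp and 5.08% in all 5066 named genes under 4000 bp. The whole nuclear genome had 7.37%, with the Ty ORFs and tRNA genes included. None of the 191 long genes had 50% or more of its length inside peaks (0%, interval 0 to 1.91). That call was made for 1.06% of the genes of 2000 to under 4000 bp and for 3.14% of all named genes. The most covered long gene reached 24.0%. Among peaks scoring at least 24, the nuclear median, 41 long genes were touched and 1.85% of their bases lay inside peaks. These 2 values are not given here for the shorter genes. Of the 120 overlaps of a peak with a long gene, 54 had such a score, against 157 of 364 in the genes of 2000 to under 4000 bp.

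The share of bases differed along the length scale mainly among the shorter genes. It was 6.27% in genes under 1000 bp, 5.36% from 1000 to under 2000 bp, 4.46% from 2000 to under 3000 bp and 3.75% from 3000 to under 4000 bp. Beyond 4000 bp it was 3.70% up to 5000 bp, 3.79% up to 6000 bp and 4.07% in the 37 genes of 6000 bp or more. Peak summits, which do not depend on how wide a peak is, were present at 1.07 per 10 kb in the long genes and 1.09 per 10 kb in the genes of 2000 to under 4000 bp. Across the classes they ran from 1.39 per 10 kb in genes under 1000 bp to 0.995 in those of 3000 to under 4000 bp. The long genes therefore held about as many summits per base as the class below them, and the difference was not tested.

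**Figure D1:**
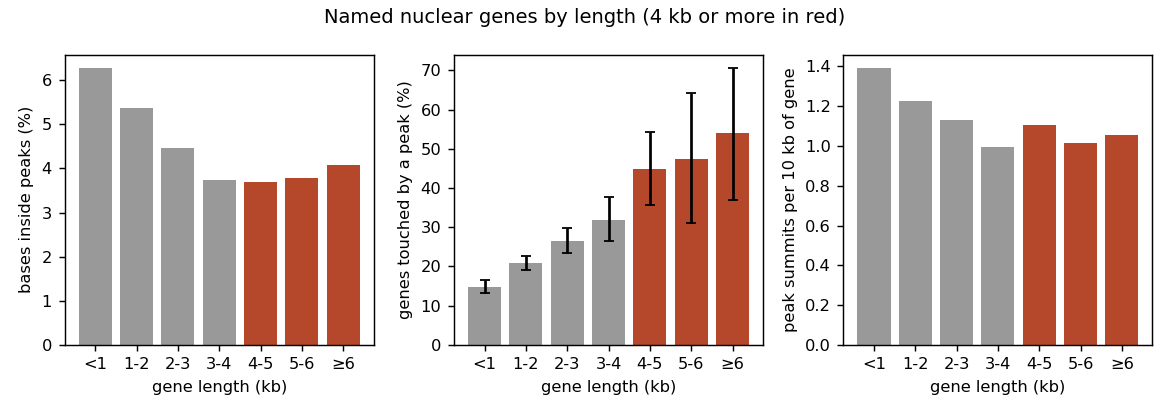
Named nuclear genes by length class in kb (grey, under 4 kb; red, 4 kb or more), with the percent of bases inside peaks (left), the percent of genes touched by a peak with exact 95% intervals (middle) and peak summits per 10 kb of gene (right). The share of genes touched reached 54.1% in genes of 6000 bp or more, while the share of bases stayed between 3.70% and 4.07% in the 3 long classes.

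Most peaks of the long genes lay wholly inside them. There were 120 overlaps of a peak with a long gene, each from a different peak. Of these, 101 (84.2%, interval 76.4 to 90.2) lay inside the gene, 8 crossed its start and 11 crossed its end. In the genes of 2000 to under 4000 bp, 245 of 364 (67.3%, interval 62.2 to 72.1) lay inside, 62 crossed the start and 57 the end. A shorter gene leaves less room for a peak to lie wholly inside. Per gene, the start was crossed in 4.19% of the long genes, against 5.99% of the genes of 2000 to under 4000 bp. The end was crossed in 5.76%, against 5.51%.

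The inside peaks were small. Their median width was 275 bp, the middle 50% lay between 225 and 375 bp, and 92 of the 101 were under 500 bp. The median score, the authors' own value of unstated scale, was 21, and the highest was 54. Over all 1687 nuclear peaks the median width was 325 bp, the median score 24 and the highest score 679. A score of 15 was held by 38 of the 101 inside peaks and by 451 of the 1687 nuclear peaks. Only 1 inside peak, in THO2, touched another annotated gene (YNL140C).

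The 8 peaks that crossed a start had a median width of 1425 bp and a median score of 43.5, against 425 bp and 30.5 for the 62 at starts of genes of 2000 to under 4000 bp. Their widths ran from 275 bp at NUP188 to 2925 bp at NUP192, and 4 of them touched a tRNA gene. Those 4 lay over the starts of UTP20, which encodes a component of the small subunit processome (score 86), PAN1, an organiser of endocytic actin patches (score 76), NUP192, a scaffold nucleoporin (score 65), and SEC7, the exchange factor for Arf GTPases at the Golgi (score 34). The other 4 lay over the starts of TOR2 (score 44), TCB3, a tether between the endoplasmic reticulum and the plasma membrane (score 43), CYR1 and NUP188 (score 26 each). The 11 peaks that crossed an end had a median width of 375 bp and a median score of 26. The strongest, with a score of 82, crossed the end of HAP1, the haem-responsive transcription factor. Only 98 bp of that 750 bp peak lay in HAP1, its summit lay beyond the gene end, and it also touched YLR256W-A. The length rule for Ty ORFs used here, which takes only ORFs over 5000 bp, does not count YLR256W-A. The peak therefore stays when peaks at Ty ORFs are left out, and whether that ORF belongs to a Ty element was not examined.

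Long genes with a tRNA gene within 1 kb were touched in 12 of 15 cases (80%, interval 51.9 to 95.7), against 78 of 176 (44.3%, interval 36.8 to 52.0) for the other long genes. Their bases lay inside peaks at 9.15%, against 3.34%. After the peaks that touch a tRNA gene were left out, the 15 genes still had 6.90% of their bases inside peaks and 10 of them were touched. The genes of 2000 to under 4000 bp showed the same order, with 37 of 61 touched beside a tRNA gene (60.7%) and 252 of 974 elsewhere (25.9%). This split was made after values had been seen, and the difference was not tested. No long gene lay within 1 kb of a Ty ORF by the length rule used here, which takes only ORFs over 5000 bp.

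Along the gene, cover was lowest in bins 3 to 6, a stretch that begins before the middle of the gene. In 10 equal bins from start to end, 4.56% of bases were inside peaks in the first bin and 5.45% in the second. Bins 3 to 6 held 1.96%, 2.94%, 2.73% and 1.87%, and bins 7 to 10 held 4.16%, 4.74%, 4.93% and 4.89%. Summed over their bases, bins 1 and 2 had 5.01%, bins 3 to 6 2.37% and bins 7 to 10 4.68%. In the genes of 2000 to under 4000 bp the same stretches had 4.51%, 3.97% and 4.33%, a flatter line. The grouping of bins was chosen after the profile had been seen, and the difference between the length classes was not tested.

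The lower cover of bins 3 to 6 was present in several subsets. They hold the same genes and peaks from which the bins were grouped, so they are no separate support for it. Bins 3 to 6 had 2.09% in the 116 genes under 5000 bp, where bins 7 to 10 had 5.31%, and 2.67% in the 75 genes of 5000 bp or more, where bins 7 to 10 had 4.02%. With only peaks of score 24 or more, bins 1 and 2 had 2.66%, bins 3 to 6 0.732% and bins 7 to 10 2.57%. With peaks under that score the values were 2.35%, 1.64% and 2.11%, so bins 3 to 6 differed less. Without REA1, which alone holds 6 peaks, bins 7 to 10 had 4.28% and bins 3 to 6 2.41%. Without the peaks at tRNA genes, bins 1 and 2 had 4.07%, bins 3 to 6 2.37% and bins 7 to 10 4.68%. The first bin alone then had 3.16%. The profile rests on few genes: 34 of 191 long genes had any peak base in bins 3 to 6 and 53 had one in bins 7 to 10.

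The start and the end of the gene did not differ in a stable way. The last bin exceeded the first by 0.329 percentage points over all long genes. In the genes of 5000 bp or more the difference was -2.48 points, and without the peaks at tRNA genes it was 1.73 points. Among the 101 peaks that lie inside a long gene, 25 had their summit in the first of 3 equal parts, 32 in the middle and 44 in the last (43.6%, interval 33.7 to 53.8). Without REA1 the counts were 25, 31 and 39. By these equal parts the first, not the middle, held the fewest summits of inside peaks, so they do not show a low middle.

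**Figure D2:**
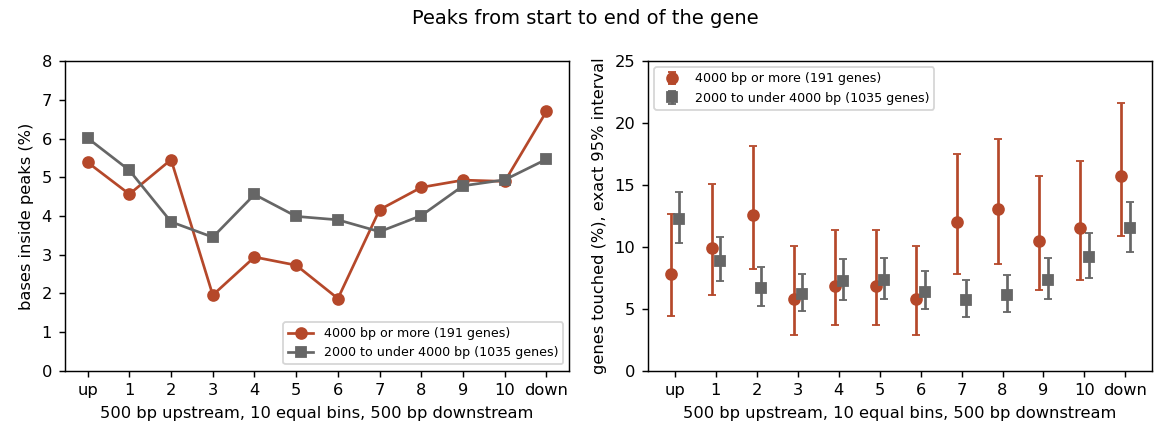
Percent of bases inside peaks (left) and percent of genes touched with exact 95% intervals (right) in 500 bp upstream, 10 equal bins from start to end and 500 bp downstream, for the 191 long genes (red circles) and the 1035 genes of 2000 to under 4000 bp (grey squares). The long genes dip to 1.87% of bases in bin 6, and the intervals of most bins overlap between the 2 length classes. The first bin had a median of 475 bp in the long genes and 257 bp in the shorter ones. A wider bin has more room to be touched, so the right panel does not compare the classes on equal terms.

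Outside the gene, peaks were counted in the flanks. The 500 bp upstream were touched in 15 of 191 genes (7.85%, interval 4.46 to 12.6), against 12.3% of the genes of 2000 to under 4000 bp and 12.4% of all named genes. The 500 bp downstream were touched in 30 (15.7%, interval 10.9 to 21.7), against 11.5% and 13.3%. The intervals of the 2 flanks overlap, and the difference between them was not tested. With peaks of score 24 or more both counts were 13, so the 2 flanks differed in count only when peaks of lower score were included. Upstream, the intergenic bases were 6.23% inside peaks for the long genes and also 6.23% for the genes of 2000 to under 4000 bp. Bases that belong to a neighbouring gene of any kind were 1.18% inside peaks beside the long genes and 5.07% beside the shorter ones. The first value rests on only 16040 bp, against 98162 bp, so a single peak can move it, and the difference was not tested. Downstream, intergenic bases were 6.26% inside peaks against 5.47%, and bases of a neighbouring gene 7.46% against 5.46%. At 7 long genes the downstream flank ran past the first base or the last annotated position of the chromosome and was shortened. At YRF1-1, YRF1-2, YRF1-3 and YRF1-5 no flank base was left, yet these genes stay among the 191.

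Peaks in the upstream flank were the larger ones. They covered a median of 375 bp of the 500 bp, with a median score of 32, and 4 of the 15 touched a tRNA gene. In the downstream flank the median was 168.5 bp, with a median score of 23, and 1 of 30 touched a tRNA gene. UBR2, a ubiquitin ligase for the proteasome regulator Rpn4, was the only long gene with peaks in both flanks. Of its upstream flank 425 bp and of its downstream flank 338 bp lay inside peaks, while the gene itself, at 5619 bp, had none. In all, 89 of the 191 long genes had no peak base in the gene or in either flank. This count was not made for the shorter genes, so it is no trait of the long ones. Of the genes of 2000 to under 4000 bp, only 27.9% were touched in the gene itself.

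INO80 (chromosome VII, 221104 to 225573), the ATPase of the INO80 chromatin remodeller, had 24.0% of its length inside 3 peaks with scores of 15, 15 and 20. PMD1 (chromosome V, 425188 to 430449), a kelch-repeat protein that acts on early meiotic genes, had 23.1%, mostly from a peak of 1025 bp that began 300 bp into the gene. That peak was the widest of all inside peaks. Its paralogue MDS3 had no peak.

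CYR1 (chromosome X, 425157 to 431237), which encodes adenylate cyclase, the source of cAMP, had 22.5%. A peak of 1600 bp ran over its start and covered the first 1069 bp, and a second of 300 bp lay at 81.1% of the length, both with a score of 26. No tRNA gene lay under the first one. RKR1 (chromosome XIII, 763351 to 768039), the ubiquitin ligase of ribosome-associated quality control, had 21.3%, with a peak of 575 bp (score 32) near the start and one of 425 bp (score 34) near the end. Beyond the end of RKR1, a separate peak of score 61 that touches SNR86 covered 475 bp of the 500 bp downstream flank. A similar pair of inside peaks stood in SCC2 (chromosome IV, 821295 to 825776), the cohesin loader. Their summits lay at 20.5% and 88.5% of the length, and 14.5% of its bases lay inside peaks.

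Cell surface genes FIG2 (chromosome III, 267434 to 272263) and FLO11 (chromosome IX, 389572 to 393675) followed, with 20.2% and 18.9%. Fig2 is an adhesin of mating cells and Flo11 the flocculin of invasive growth. In FIG2 the 3 peaks had scores of 38, 32 and 23 and summits at 54.9%, 68.9% and 89.1% of the length. In FLO11 the 2 peaks had summits at 65.5% and 80.7%. In both genes the stretch before these peaks, which takes up more of the gene than the peaks do, was free of them. Both proteins have internal repeats, and the treatment of reads that match several places is not known here.

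USO1 (chromosome IV, 345665 to 351037), the tether of vesicles between endoplasmic reticulum and Golgi, had 18.1% in a single peak of 975 bp (score 32). TOP2 (chromosome XIV, 457704 to 461990), DNA topoisomerase II, had 17.3% under a peak of 775 bp (score 26) that ran over the end of the gene. Both peaks sat in the last part of the gene, with summits at 82.8% and 85.9% of the length.

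UTP20 (chromosome II, 227636 to 235117) had 16.6%, of which 1040 bp came from the peak at the tRNA gene before its start. Without that peak, 200 bp remained. TOR2 (chromosome XI, 55935 to 63359), a kinase of both TOR complexes, had 16.3% in 3 peaks: one of 1250 bp over its start (score 44) that also reached MNN4, one of 825 bp just after it (score 32) and one of 200 bp at 68.6% of the length (score 16). TOR1, the paralogue found in TOR complex 1, had 2.70% in 1 peak of score 15.

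MET5 (chromosome X, 678957 to 683285), a sulfite reductase subunit, had 15.6% in 1 peak of 675 bp, and ESC1 (chromosome XIII, 707133 to 712109), a protein of the nuclear periphery that takes part in silencing, had 13.6% in 1 peak of the same width. Both peaks had a score of 15, and neither remains among peaks of score 24 or more. The same holds for every peak of INO80, SCC2 and PDR11, and for the 1025 bp peak of PMD1 (score 23). PDR11 (chromosome IX, 328207 to 332442), a transporter for sterol uptake, had 15.3% in 2 peaks of 325 bp each (scores 21 and 23). PAN1 (chromosome IX, 365466 to 369908) had 14.2%, all of it from the peak of 1875 bp at its start that also holds a tRNA gene and reaches EGH1. Together these 15 genes held 36.0% of all long-gene bases inside peaks.

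**Figure D3:**
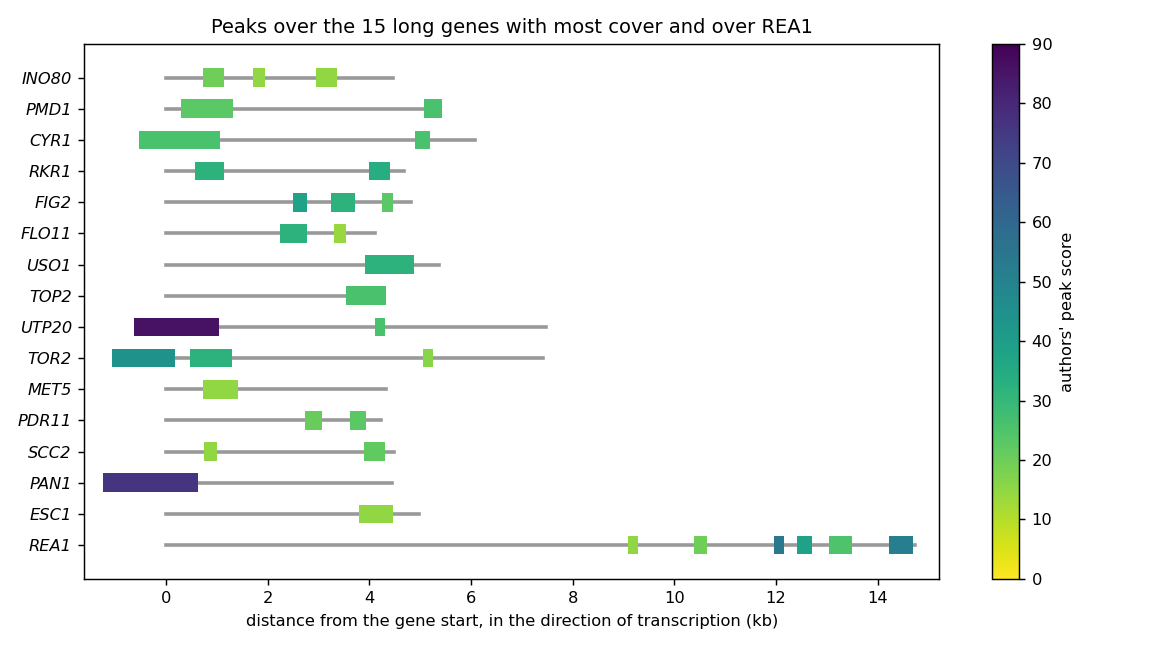
Peaks (bars, coloured by the authors' score) along the 15 long genes with most cover and along REA1 (grey lines), in kb from the gene start in the direction of transcription. Bars that begin left of 0 cross the start, as in CYR1, UTP20, TOR2 and PAN1, and the 6 bars of REA1 all lie in its later part.

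Several separate peaks in a gene were uncommon. Of the 191 long genes, 101 had no peak, 67 had 1, 19 had 2, 3 had 3 and 1 had 6. The 23 genes with 2 or more (12.04%, interval 7.79 to 17.5) compare with 6.09% of the genes of 2000 to under 4000 bp and 3.33% of all named genes. Longer genes have more room for several peaks, and the difference was not tested. The 30 gaps between neighbouring peaks of a gene had a median of 1213 bp and ran from 250 to 3850 bp. Peaks under 200 bp apart, which could be 1 broken interval, did not occur within any long gene.

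REA1 (chromosome XII, 349006 to 363738), also called MDN1, is the longest gene of the nuclear genome and encodes a dynein-like ATPase that strips assembly factors from large ribosomal subunit precursors. It held 6 peaks and had 12.7% of its length inside them. The first 9088 bp, 61.7% of the gene, had none. Of the 5600 bp from the first to the last peak base, 33.5% lay inside peaks, with scores of 15, 20, 54, 38, 25 and 52 in the direction of transcription. The gaps between these peaks ran from 250 to 1325 bp, and 4 of the 6 peaks had a score over the nuclear median of 24.

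Of the other 9 genes among the 10 longest, 7 were touched, by 8 peaks in all. That is 0.922 peaks per 10 kb, and 2.71% of their bases lay inside peaks. All long genes had 1.19 per 10 kb and 3.82%, but with REA1 and its 6 peaks counted. The 37 genes of 6000 bp or more, REA1 included, had 1.16 per 10 kb and 4.07%. These differences were not tested, and the lower values rest on leaving REA1 out. DYN1, the heavy chain of cytoplasmic dynein (12279 bp), and NUM1, its cortical anchor (8247 bp), had none. TRA1, the activator-binding subunit of SAGA and NuA4 (11235 bp), had 2.23% in 1 peak. TOM1, a HECT ubiquitin ligase (9807 bp), had 7.14% in 2 peaks, both of score 15. VPS13 and CSF1, bridge-like lipid transfer proteins, had 3.44% and 3.38%, each in 1 peak. IRA1 and IRA2, the GTPase activators of Ras, had 3.77% and 2.44%, each in 1 peak whose summit lay at 14.4% and 9.66% of the length. TEL1, the checkpoint kinase that acts at telomeres, had 2.39% in 1 peak of score 15. Among the 10 longest genes, REA1 held the most peaks and TOM1 the next most.

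**Figure D4:**
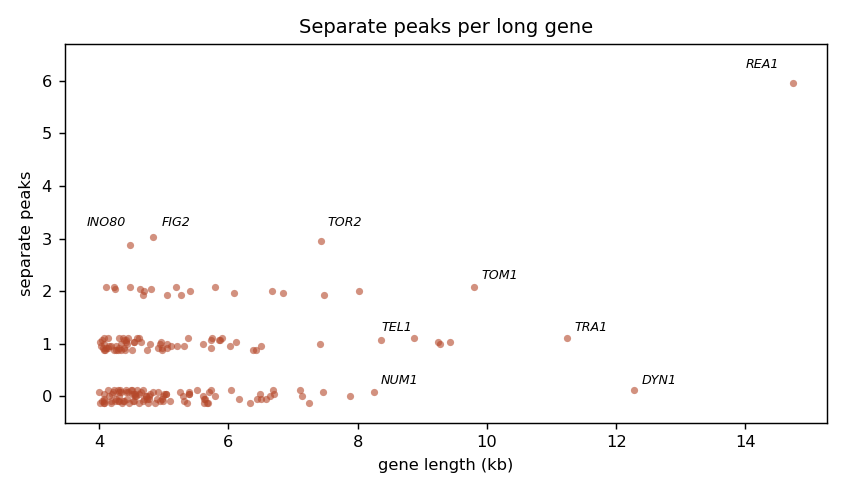
Number of separate peaks in each of the 191 long genes (points, moved slightly up or down to show overlaps) against gene length in kb. REA1 has 6 peaks, DYN1 and NUM1 have 0, and INO80 and FIG2 have 3 peaks at under 5 kb.

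The long genes were sorted into 14 functional groups from textbook knowledge, which left CMR2, of unknown role (6.57%), in none. Groups are described by their counts beside the 47.1% of all long genes touched and the 3.82% of bases inside peaks. The median over all 191 genes was 0%, since 101 had no peak. No group was tested.

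Genes of ribosome biogenesis and translation control had 8.85% of bases inside peaks over 7 genes, with 5 touched and a median of 7.71%. Besides UTP20 and REA1 they were UTP10 (8.004%) and RRP5 (7.71% in 2 peaks of score 32), which act in early rRNA processing, and GCN1 (7.17%), which activates the kinase Gcn2. URB1, a large subunit assembly factor, and GCN2 had no peak. Without REA1 the share was 7.28%. Without the peak at the tRNA gene before UTP20 it was 6.81%, below the cell wall and surface group (7.05%) and the ubiquitin ligases (6.83%), so its place above both rests on that peak.

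Genes of the cell wall and surface had 7.05% over 8 genes with 4 touched, all of them surface glycoproteins or wall assembly factors. HKR1, an osmosensor mucin, had 12.02% and KRE5, needed for β-1,6-glucan, 9.76%. The 3 genes for β-1,3-glucan synthase subunits, FKS1, GSC2 and FKS3, had no peak, nor did the flocculin gene FLO1. Without FIG2 the share was 5.23%.

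Ubiquitin ligases and proteasome-associated proteins had 6.83% over 9 genes with 6 touched. After RKR1 came IRC20 (13.4% in 2 peaks of score 26), and ECM29, a proteasome adaptor (8.92%). UBR2, UFD4 and APC1, a subunit of the anaphase-promoting complex, had none.

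DNA replication, repair and chromosome structure had 4.83% over 12 genes, of which 6 were touched. Beside TOP2 and SCC2, POL2, the catalytic subunit of DNA polymerase epsilon, had 7.87% in 2 peaks. POL1, DNA2, REV3 and ESP1, the separase, had none. Chromatin and transcription regulators had 4.54% over 21 genes with 10 touched. TAF2, a TFIID subunit, had 11.8% in 2 peaks and SNF2, the ATPase of SWI/SNF, 9.29% in 1, while STH1, the related ATPase of RSC, and CDC39, the Ccr4-Not scaffold, had none. Of the 8 PI3K-related and lipid kinase genes 6 were touched, with 4.51% of bases. VPS15 had 7.45% and FAB1 6.58%, both in phosphoinositide signalling, and MEC1, the checkpoint kinase, had none. Without TOR2 the share was 2.79%.

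Vesicle traffic and lipid transfer had 15 of 28 genes touched but 3.21% of bases. RAV1, of the RAVE complex that assembles the vacuolar ATPase, had 9.82%, and SEC16, FMP27 and LAA1 had none. Signalling, polarity and cytoskeleton, the group with most members, had 12 of 33 touched and 3.16% of bases. After PMD1 and CYR1 came DCK1 (8.62% in 2 peaks), an exchange factor. The myosin genes MYO1, MYO2 and MYO4 had none. In this group 7 downstream flanks and 1 upstream flank were touched.

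Genes of the nuclear pore had 2.97% over 8 genes with 4 touched. POM152, a membrane nucleoporin, had 8.72% and NUP192 8.39%, while MLP1 and MLP2, the basket proteins that take part in mRNA quality control, had none. Splicing, RNA processing and decay had 2.92% over 13 genes with 7 touched. THO2, a core subunit of the THO complex, had 11.99% in 2 peaks, at 7.38% and 96.0% of its length. The first had a score of 15 and the second 32. PRP8 and BRR2, core proteins of the spliceosome, SEN1, the hybrid-unwinding helicase, and XRN1, the cytoplasmic exonuclease, had none.

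Metabolic enzymes had the lowest share, 1.34% over 12 genes with 2 touched. MET5 held most of it, and HFA1, the mitochondrial acetyl-CoA carboxylase, had 3.14%; without MET5 the share was 0.327%. The cytoplasmic enzyme ACC1, the fatty acid synthase genes FAS1 and FAS2, URA2, GLT1, ARO1, LYS2, ADE6, DUR12 and GDB1 had no peak. The RNA polymerase group had 2.07% over 5 genes. RPO41, the mitochondrial polymerase, had 6.78% and RPO21, the largest subunit of RNA polymerase II, 3.84%, whereas RPA190 and RPO31, its counterparts in polymerases I and III, had none. ABC transporters and P-type ATPases had 2.096% over 18 genes with 6 touched. After PDR11 came YPK9 (5.66%) and YOR1 (5.07%), and YBT1, SNQ2, YCF1 and the flippase genes DNF1, DNF2, DNF3 and DRS2 had none.

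The 8 helicase genes of subtelomeric Y' elements had 2.11% of bases inside peaks and 4 touched, with the highest value in YRF1-4 (7.23%). These copies are nearly identical, so the value of each is uncertain. Of the 15 long genes within 30 kb of a chromosome end, 5 were touched (33.3%, interval 11.8 to 61.6) with 1.22% of bases inside peaks, against 85 of 176 (48.3%, interval 40.7 to 55.9) and 4.05% farther in.

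**Figure D5:**
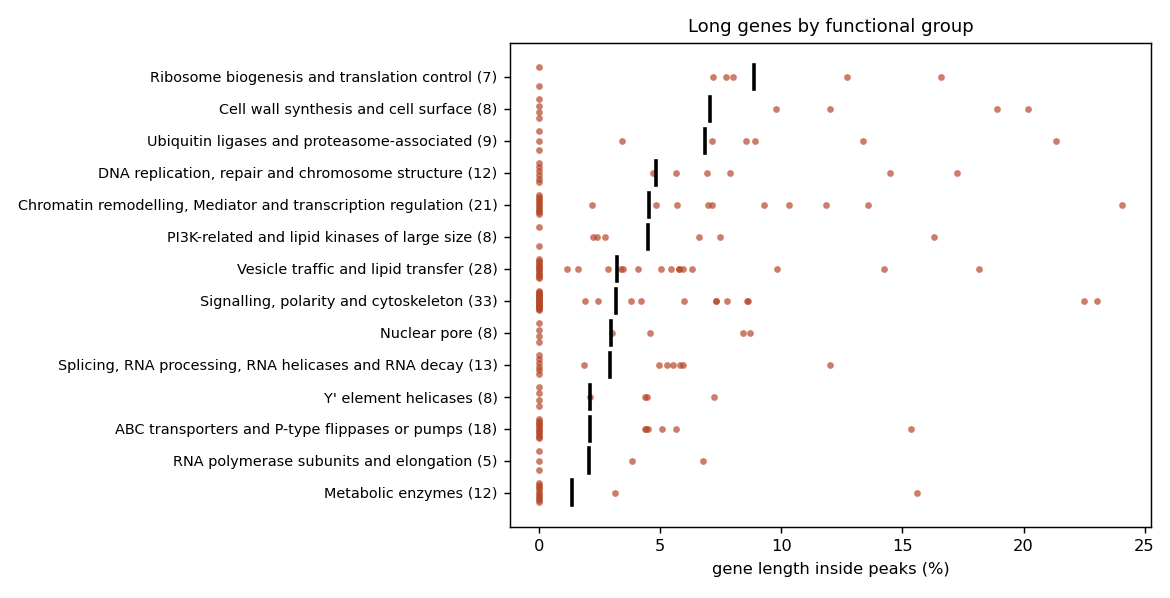
Percent of the gene length inside peaks for each long gene (points) by functional group, with the number of genes in brackets and the share of the group's bases inside peaks as a black bar. Groups run from ribosome biogenesis and translation control (8.85%, or 6.81% without the peak at a tRNA gene, which is below cell wall at 7.05% and ubiquitin ligases at 6.83%) at the top to metabolic enzymes (1.34%) at the bottom, and every group holds genes at 0%.

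By strand, 47 of 97 long genes on the W strand and 43 of 94 on the C strand were touched, with 3.81% and 3.83% of bases inside peaks. At the limit of 4000 bp the shortest genes taken in were PDR18 (4002 bp, no peak), SEC3 (4011 bp, no peak) and POM152 (4014 bp, 8.72%). The longest left out were SPT7 (3999 bp, 11.9%), SSK22 (3996 bp, 10.01%) and ADR1 (3972 bp, 5.04%).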

How the data were processed

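The authors' deposited file is a narrowPeak list of the S9.6 immunoprecipitate with 1723 peaks, 1687 of them nuclear. The submitters' processing notes list the build sacCer3 and the tools MACS2 2.1.1.20160309 and SAMtools 1.7. The sources used here do not give the aligner, the peak threshold or what part the input played. The deposited score is a whole number of unstated scale, used only to filter and describe peaks within the list. The deposited fold, p and q columns hold 0 throughout and were not used.

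Genes, symbols and positions (1-based) came from the RefSeq gene table of R64, the sacCer3 sequence, with strand from W or C in the systematic name. Overlaps were computed in Python 3.11.15 with pandas 2.3.3, and the code was checked on simulated data with known answers. A gene was touched at 1 bp. The members, groups and rules were chosen with earlier results of these data known, and gene groups were completed after the gene table was read. Named genes were the 15 most covered, those with 3 or more peaks, the 10 longest, the top 3 and longest untouched of each group, and 3 on each side of 4000 bp. Other named genes were chosen after their values were seen. No sequence was used.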

Additional observations from a re-analysis of the deposited data

How the results depend on the processing

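With 1 library there is no replicate to leave out. No paired analysis was possible because the labels give 1 immunoprecipitate and 1 input, and a single peak list was compared. For the percent of bases and for the difference between bins, a shift was called small when it stayed within the counting interval of the main value. Bases inside a peak are not independent, so that interval is narrow.

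Peaks of score 24 or more gave 1.85% of bases, 41 genes touched, 11 with 2 or more peaks and 13 downstream flanks touched. The same values are not given here for the shorter genes. Leaving out peaks at tRNA genes or Ty ORFs gave 3.63% of bases and a last minus first bin of 1.73 points. The 200 bp around summits gave 2.15% of bases. Genes of 5000 bp or more (75) gave 3.95%, 38 touched, 13 with 2 or more peaks, a bin difference of -2.48 points, and 9 upstream and 12 downstream flanks touched. Genes of 3000 bp or more (464) gave 177 touched, 2 at 50% of the length, 39 with 2 or more peaks, -0.266 points, and 47 upstream and 57 downstream flanks. Both changes of the length limit also change the number of genes. Without genes near chromosome ends 4.05% of bases were inside peaks. The bin difference was 1.06 points with 20 bins and 0.768 with genes weighted equally. No long gene reached 25% of its length inside peaks, against 4.15% of the genes of 2000 to under 4000 bp and 7.76% of all named genes. A longer gene needs more peak bases to reach that share.

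The lower cover of bins 3 to 6 than of bins 7 to 10 (-2.31 points) kept its sign under 7 alternatives chosen after seeing the data. They ran from -0.937 with genes of 3000 bp or more to -2.53 without genes near chromosome ends. These alternatives reuse the genes and peaks from which the bins were grouped, so they are no separate support.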

Other observations

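In 18 pairs of long genes with related products, listed from textbook knowledge after some values had been seen, 6 pairs had both genes touched, 6 had 1 and 6 had none. Since 47.1% of all long genes were touched, unrelated genes would also give pairs of each kind. Whether the genes of a pair agree was not tested. PDR5 and PDR15, paralogous drug efflux pumps, had 4.41% and 4.36%, and the formin genes BNI1 and BNR1 had 5.97% and 7.32%. In FKS1 and GSC2, DNF1 and DNF2, MLP1 and MLP2, NUP157 and NUP170, MYO2 and MYO4, and FAS1 and FAS2 neither gene had a peak. Paralogues can share reads.

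By chromosome, 11 of 15 long genes on chromosome XIII were touched (5.76% of bases), against 1 of 11 on chromosome XVI (0.210%), where the touched gene is the telomere-proximal YRF1-7. These chromosomes were chosen after their values were seen: XIII has the most touched genes, although III and IX have larger shares of bases (5.95% and 6.07%), and XVI has the lowest share. Of the ORFs that the naming rule left out, YLR278C had 7.45% and YLR419W 2.55% of their length inside peaks.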
